A study of Homo sapiens with 4 samples.

Results

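The Notch pathway was examined in SK-N-BE(2) cells through 10 genes: the receptors NOTCH1, NOTCH2 and NOTCH3, the ligands DLL3, JAG1 and JAG2, the non-canonical ligand DLK1, and the transcription factors HES1, HES6 and HEY1. The genes were taken by their GENCODE symbols and matched to the Ensembl gene identifiers of the deposited count table, in which they make up 10 of 64252 genes. All 10 passed the filter on low counts, as did 18779 genes of the table. SK-N-BE(2) is an established human neuroblastoma cell line. The control group carried a scramble shRNA (sh-Scb) and the SAPCD2-knockdown group an shRNA against SAPCD2 (sh-SAPCD2), with 2 libraries of total RNA in each group. The study describes its shRNA cells as stable lentiviral lines selected with puromycin, but how long the sequenced cells had carried the hairpin is not given in the sources used here. The comparison asks how the transcripts of the pathway differed after SAPCD2 knockdown. The labels do not say whether libraries of a group came from separate cultures, so p-values measure only the spread between these libraries, which may be technical.

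Notch receptors are cut by ADAM10 and by the gamma-secretase complex after a ligand on a neighboring cell has bound, and the freed intracellular domain joins RBPJ and a Mastermind protein on DNA to switch on HES and HEY genes. HES1 and HEY1 are repressors of the basic helix-loop-helix class, known for holding neural progenitors undifferentiated. In sympathetic neuroblasts and neuroblastoma, the pathway is known for its links to cell state, with NOTCH3 associated with mesenchymal features and DLK1 with adrenergic ones.

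The targeted gene was checked first. SAPCD2 had 2308 and 2263 counts in the sh-Scb libraries and 895 and 1648 counts in the sh-SAPCD2 libraries, of 25347900 to 31850997 counts per library in all. It fell from 82.8 ± 0.924 to 43.9 ± 12.1 CPM (counts scaled by TMM to a common library size; mean ± SD, n = 2), a log2 fold change of −0.91 (SE 0.193, adjusted p = 0.0206), and 42.65% of the control mean was left in sh-SAPCD2 library 1 against 63.3% in library 2. These libraries differed more from each other than the controls did, with a median absolute log2 ratio across genes of 0.280 against 0.111. Their ratio moved with the GC content of the transcript (Spearman's rho across genes 0.563, against −0.0555 between the controls). SAPCD2 itself has 66.47% GC, and the median ratio of library 2 to library 1 was 1.495 at 65 to 70% GC. With the libraries corrected for GC content and length, the log2 fold change of SAPCD2 was −1.29 (adjusted p = 2.48e-05). Of the lists of cell markers, all 9 adrenergic neuroblastoma genes were detected and summed to 5468 and 5350 CPM in the controls against 7686 and 9496 CPM after knockdown, most of it MYCN. The sum does not stand for the list: at an adjusted p under 0.05, 3 of the 9 genes were lower and 1 was higher. Their median log2 fold change was 0.0245. Of all tested genes, 12.5% were lower and 12.4% higher. The mesenchymal list was detected for 6 of 7 genes, with PRRX1 at 0, and summed to 1371 and 1355 against 685.6 and 700.3 CPM, most of it VIM. Of its 6 tested genes, 2 were lower and 1 was higher at the same threshold, with a median log2 fold change of −0.348. Markers of Schwann cells (3 of 4 detected, SOX10 at 0), endothelial cells (3 of 3) and leukocytes (3 of 4, CD3E at 0) were low but higher in both knockdown libraries than in both controls, at 2.40 to 3.72 against 4.89 to 7.12 CPM, 0.0726 to 0.470 against 0.986 to 1.03 CPM and 9.51 to 10.2 against 12.1 to 14.1 CPM, and VWF and CD14 were among the genes called higher. Fibroblast markers (4 of 4) summed to 171.4 and 189.3 against 213.6 and 160.3 CPM, and the groups overlapped. In bulk RNA, fewer cells of a type and less RNA per cell cannot be told apart, and the part of these cell types and states in the results below was not tested.

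Among the 10 genes NOTCH2 fell, whereas HEY1, HES1 and DLL3 rose, and the other 6 genes did not pass the test in either direction. At an adjusted p under 0.05, 1 of 10 genes was lower and 3 of 10 were higher, where 12.5% and 12.4% of all tested genes were called lower and higher. With an absolute log2 fold change over 1 in addition, which is the threshold the study used for differentially expressed genes, NOTCH2 and HEY1 were left, and 5.15% and 4.69% of all tested genes passed in the lower and higher direction. In 9 of 10 genes the libraries of the groups did not overlap, a pattern that 67% of all tested genes had. The log2 fold change was below 0 in 4 of 10 genes, as in 48.8% of all tested genes. The median log2 fold change of the 10 genes was 0.59 and that of all tested genes 0.0168.

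**Figure D1:**
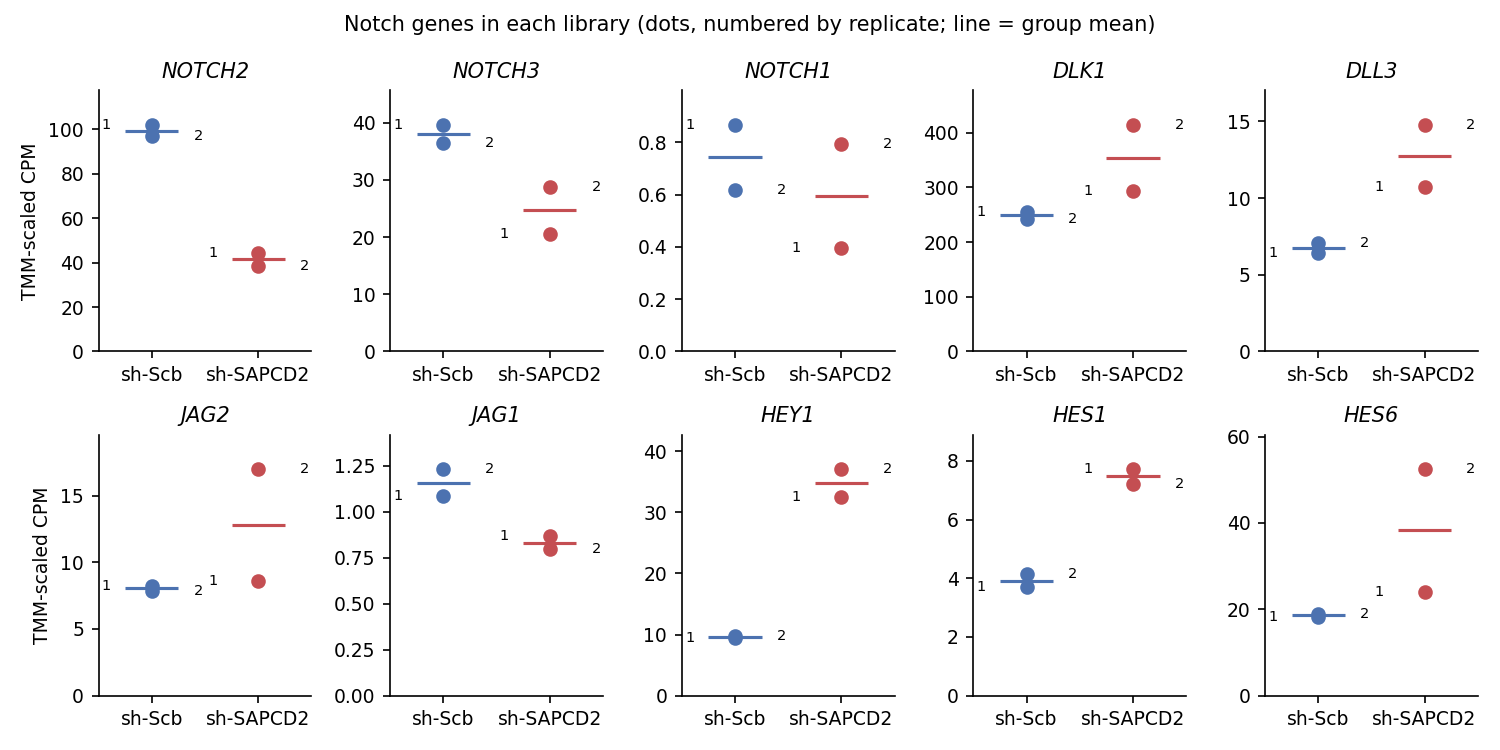
TMM-scaled CPM of the 10 Notch genes in each library, with dots numbered by replicate, a line at the group mean (n = 2) and an axis from 0 that differs between genes. NOTCH2 sits near 40 CPM in both sh-SAPCD2 libraries and near 100 in both controls, HEY1 and HES1 are tightly grouped, and HES6, JAG2 and DLK1 are spread widely between the sh-SAPCD2 libraries.

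NOTCH2 was the receptor with the largest change. It encodes a Notch receptor of many neural and vascular tissues (ENSG00000134250; hg38, chromosome 1, minus strand, 119911553 to 120100779). It had 102.2 and 96.84 CPM in the sh-Scb libraries and 44.19 and 38.7 CPM in the sh-SAPCD2 libraries. Both knockdown libraries lay below both controls, and the gap was wide against the spread within either group. From 99.5 ± 3.77 to 41.5 ± 3.88 CPM (SD, n = 2), it fell by 1.26 on the log2 scale (SE 0.120, 95% confidence interval −1.56 to −0.97, adjusted p = 0.00313). These levels rested on 2826 and 2668 counts in the controls and on 1120 and 1217 counts after knockdown. The human genome holds partial copies of the start of NOTCH2, and how reads with several matches were counted is not given in the sources used here. NOTCH2NLA, a copy with its own row, had 89 and 138 counts in the controls against 105 and 149 after knockdown (log2 fold change 0.11, adjusted p = 0.798), and the other copies were not analysed here.

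NOTCH3, a receptor that is itself known as a Notch target, was lower in both knockdown libraries, but the difference did not pass the test. It (ENSG00000074181; chromosome 19, minus strand, 15159038 to 15200995) had 39.7 and 36.41 CPM in the sh-Scb libraries and 20.63 and 28.75 CPM in the sh-SAPCD2 libraries. The groups did not overlap, and the knockdown libraries were further from each other than the controls. The log2 fold change was −0.62 (SE 0.185, 95% confidence interval −1.07 to −0.17, adjusted p = 0.0556). NOTCH3 passed under DESeq2 (adjusted p = 0.0108). It also passed after correcting the libraries for transcript GC content and length, where the log2 fold change was −0.91 (adjusted p = 0.00035). Without a filter on low counts it did not pass (adjusted p = 0.146). The log2 fold change was −0.56 without sh-Scb replicate 1 and −0.68 without sh-Scb replicate 2, and NOTCH3 was not called in either fit.

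NOTCH1 was near the limit of detection. Known as the receptor of T-cell and many epithelial lineages (ENSG00000148400; chromosome 9, minus strand, 136494433 to 136546048), it had 24 and 17 counts in the sh-Scb libraries and 10 and 25 counts in the sh-SAPCD2 libraries, or 0.868, 0.617, 0.395 and 0.795 CPM, where 3 counts equaled 0.0954 to 0.118 CPM. It was the only gene of the 10 whose groups overlapped, and its log2 fold change of −0.30 had a 95% confidence interval of −1.52 to 0.92 (adjusted p = 0.696). A change of the size seen in NOTCH2 was therefore within the interval at this depth.

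The sequence of the hairpin was compared with these transcripts, because a short hairpin RNA can also act on other transcripts through partial matches in their 3′ untranslated regions (UTRs). The labels do not say which hairpin was sequenced, and the study names sh-SAPCD2 #1 for these libraries. Its target of 21 bases lies in the coding sequence in exon 6 of SAPCD2 (hg38 chr9:137064663-137064683, minus strand), and capitals mark the 7 bases that pair with guide bases 5 to 11. These bases, and 3 further sites of the guide and passenger strands, were singled out after the values of all genes had been seen. The NOTCH2 and NOTCH3 lines give 23 bases of their 3′ UTRs around the site, from the hg38 genome (chr1:119915283-119915305 and chr19:15159647-15159669, both minus strand), and capitals mark the site. In NOTCH2 all 7 bases of the site are those of the target, whereas the NOTCH3 site has 6 of them followed by an A. They are shown because these are the receptor transcripts that carry such a site.
sh-SAPCD2 #1 target: acctctggatTCCACCTtcat
NOTCH2 3′ UTR: gagagTCCACCTccagtgtagag
NOTCH3 3′ UTR: tcccctcaCCACCTAataaagga
The NOTCH2 site starts at base 6 of a 3′ UTR of 3753 bases, and the NOTCH3 site at base 1001 of 1624. JAG2, which was not lower, carried 3 of these sites, and the other 7 genes carried none. Of 3′ UTRs of 13583 tested genes, 17.9% held TCCACCT, 7.53% held CCACCTA, and 33.9% held any of the 4 sites. The ordinary seed match of the guide, ACCTTCA, was in 12.5% of 3′ UTRs and in none of the 10 genes. The part of these sites in the levels of NOTCH2 and NOTCH3 was not tested, and there is no library with another hairpin among those used here.

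Among the ligands, DLL3 rose and DLK1, JAG2 and JAG1 did not pass the test. DLL3 is an atypical ligand of neuroendocrine cells that is known to inhibit Notch signaling within the cell that makes it (ENSG00000090932; chromosome 19, plus strand, 39498895 to 39508481). It had 6.40 and 7.08 CPM in the sh-Scb libraries and 10.7 and 14.8 CPM in the sh-SAPCD2 libraries. Both knockdown libraries were above both controls, and library 2 was the higher. The log2 fold change was 0.92 (SE 0.212, 95% confidence interval 0.41 to 1.44, adjusted p = 0.0264), and it was 0.55 after the GC and length correction (adjusted p = 0.0198). The call was lost without sh-Scb replicate 1 (0.85, adjusted p = 0.0902) and without a filter on low counts (adjusted p = 0.0797).

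DLK1, a membrane protein of immature sympathoadrenal cells that lacks the domain other ligands use to activate Notch, had the highest read number of the 10 genes (ENSG00000185559; chromosome 14, plus strand, 100725705 to 100738224). It had 255.4 and 242.3 CPM in the sh-Scb libraries and 293.2 and 415.1 CPM in the sh-SAPCD2 libraries. The groups did not overlap, but library 1 stood just above the controls and library 2 well above them. The log2 fold change was 0.51 (SE 0.171, 95% confidence interval 0.09 to 0.92, adjusted p = 0.0764), with 0.24 against the controls for library 1 alone and 0.73 for library 2 alone. DESeq2 called it higher (adjusted p = 0.0147).

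The Jagged ligands were weakly expressed. JAG2 (ENSG00000184916; chromosome 14, minus strand, 105140982 to 105168824) had 8.24 and 7.84 CPM in the sh-Scb libraries and 8.56 and 17.0 CPM in the sh-SAPCD2 libraries. Library 1 was at the control level, and the difference of 0.67 on the log2 scale (SE 0.323, 95% confidence interval −0.11 to 1.46, adjusted p = 0.177) came from library 2, since it was 0.09 without that library and 1.08 (adjusted p = 0.00307) without library 1. JAG1 (ENSG00000101384; chromosome 20, minus strand, 10637684 to 10673999) had 30 and 34 counts in the sh-Scb libraries and 22 and 25 counts in the sh-SAPCD2 libraries. Its levels of 1.09, 1.23, 0.868 and 0.795 CPM did not overlap between the groups, but the log2 fold change of −0.48 had a 95% confidence interval of −1.34 to 0.38 (adjusted p = 0.358). Neither Jagged gene was thus called, and JAG1 rested on 34 counts or fewer in each library.

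The HES and HEY factors were all higher in both knockdown libraries than in both controls, where 67% of all tested genes had groups that did not overlap. HEY1 and HES1 passed the test and HES6 did not. HEY1, a repressor that acts in the heart, vessels and nervous system downstream of Notch, had the largest change of the 10 genes (ENSG00000164683; chromosome 8). It had 9.47 and 9.69 CPM in the sh-Scb libraries and 32.5 and 37.1 CPM in the sh-SAPCD2 libraries. The knockdown libraries differed little from each other and lay more than 3 times above the controls. Levels rose from 9.58 ± 0.155 to 34.8 ± 3.28 CPM (SD, n = 2), a log2 fold change of 1.86 (SE 0.146, 95% confidence interval 1.51 to 2.22, adjusted p = 0.00215). These levels rested on 262 and 267 counts in the controls and on 823 and 1167 counts after knockdown.

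HES1 is the best known direct target of the RBPJ complex in neural cells (ENSG00000114315; chromosome 3, plus strand, 194136148 to 194138732). It had 3.69 and 4.14 CPM in the sh-Scb libraries and 7.73 and 7.22 CPM in the sh-SAPCD2 libraries. Both groups were tight and did not overlap. The log2 fold change was 0.93 (SE 0.196, 95% confidence interval 0.46 to 1.41, adjusted p = 0.0204), from 102 and 114 counts to 196 and 227 counts. The call was lost without sh-Scb replicate 1 (0.85, adjusted p = 0.134), without sh-Scb replicate 2 (1.02, adjusted p = 0.0625) and without a filter on low counts (adjusted p = 0.0525).

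The promoter of HES1 is shown because it carries the letters that RBPJ is known to bind. The sequence is from RefSeq (GRCh38.p14, chr3:194136059-194136088, plus strand), and capitals mark TGGGAA, the core searched for on both strands of a window from 250 bases before to 50 bases after each start.
HES1 promoter: tactgTGGGAAagaaagttTGGGAAgtttc
The cores start 84 and 70 bases before the transcription start, 14 bases apart. TGGGAA was in 24.0% of 35116 promoters, and 3.80% held 2 or more. Of 9 HES and HEY promoters searched, 6 held a core and 4 held 2 or more, namely HES1, HES5, HEY2 and HEYL. HES5 and HEYL had no count in any library, and HEY2 had 7 counts in a single control library, so that of these 4 genes HES1 alone was measured well enough to be tested. The promoters of HES6, NOTCH1, NOTCH2, NOTCH3, JAG1 and JAG2 held no core in this window. Promoters of DLK1, DLL3 and HEY1 were not searched. The N-box CACNAG, which HES repressors are known to bind, was found 4 times in the HES1 window. Its positions were −165, −132, −58 and 16 from the start. It was in 38.03% of all promoters, and 8.945% held 2 or more. A match of letters describes the window and is not a measured site.

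HES6 differs from HES1 in that it is known to promote neuronal differentiation and to antagonize HES1 (ENSG00000144485; chromosome 2, minus strand, 238238267 to 238240662). It had 18.3 and 19.0 CPM in the sh-Scb libraries and 24.1 and 52.5 CPM in the sh-SAPCD2 libraries. The groups did not overlap, but library 2 was far above library 1. The log2 fold change was 1.04 (SE 0.345, 95% confidence interval 0.20 to 1.88, adjusted p = 0.0741), with 0.37 for library 1 alone against the controls and 1.49 for library 2 alone. DESeq2 called it higher (adjusted p = 0.00146), and it was called at 0.65 after the GC and length correction (adjusted p = 0.0164). The log2 fold change was 1.01 without sh-Scb replicate 1 and 1.07 without sh-Scb replicate 2. HES6 overlaps an annotated lncRNA on the opposite strand, which had 0 and 2 counts in the controls against 5 and 10 after knockdown, and whether counting used strand is not given in the sources used here. The other 9 genes overlapped no annotated gene, or only genes with at most 4 counts in any library.

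**Figure D2:**
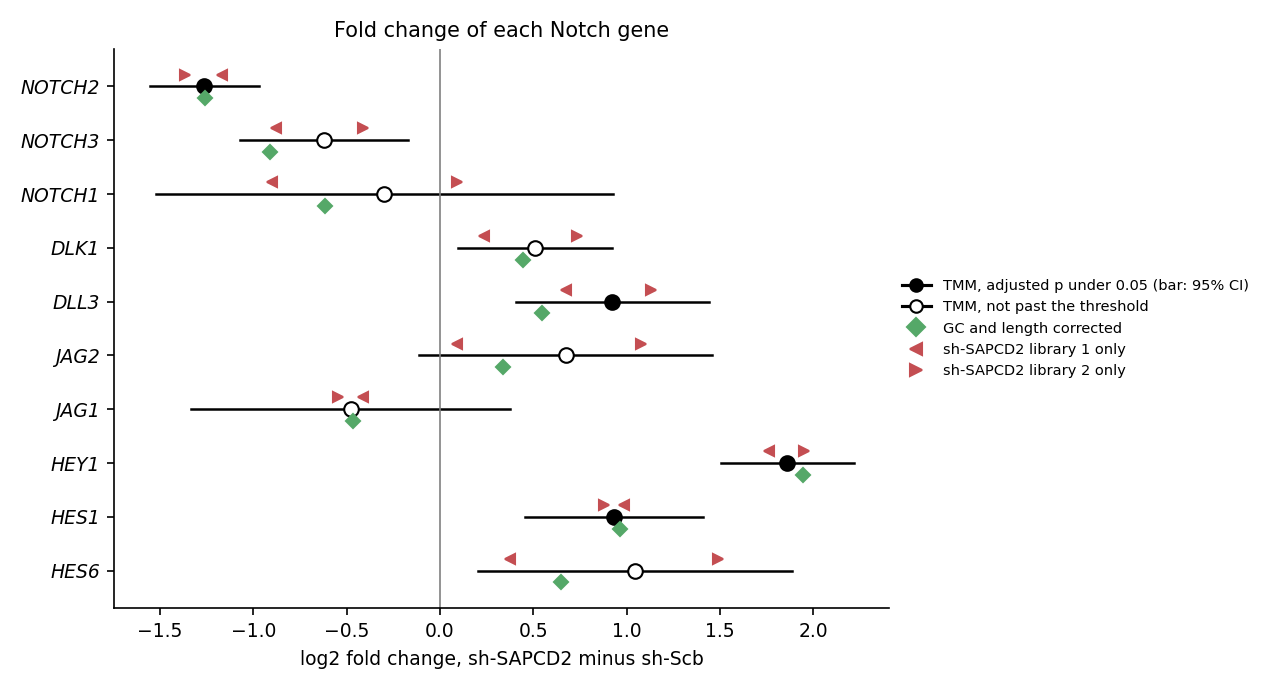
Log2 fold change of each Notch gene, sh-SAPCD2 minus sh-Scb, with circles for the edgeR fit (filled where the adjusted p was under 0.05) and bars for the 95% confidence interval. Diamonds give the fit corrected for GC content and length and triangles each sh-SAPCD2 library alone against both controls, which lie close together for NOTCH2, HEY1 and HES1 and far apart for HES6, JAG2 and NOTCH1.

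Levels were compared between genes as CPM per kb of merged exons. In the control group the order was DLK1 (47.4 ± 1.77 CPM per kb), HES6 (9.53 ± 0.262), NOTCH2 (5.94 ± 0.225), NOTCH3 (4.05 ± 0.248), DLL3 (2.57 ± 0.183), HES1 (1.90 ± 0.155), HEY1 (1.75 ± 0.0282), JAG2 (1.26 ± 0.0446), JAG1 (0.125 ± 0.0114) and NOTCH1 (0.0592 ± 0.0142). HES1 and HEY1 did not differ beyond their spread, and the others were spaced by more than their SD. In SAPCD2-knockdown cells HEY1 (6.34 ± 0.598 CPM per kb) moved up to the third place, above DLL3 (4.87 ± 1.10) and HES1 (3.63 ± 0.177). NOTCH3 (2.63 ± 0.610), NOTCH2 (2.48 ± 0.232) and JAG2 (2.00 ± 0.935) could no longer be ordered beyond their spread. DLK1 (67.5 ± 16.4) and HES6 (19.6 ± 10.3) stayed on top, and JAG1 (0.0894) and NOTCH1 (0.0475) at the bottom. The place of HEY1 in the control group depends on the length used. Per kb of its canonical transcript HEY1 stood at 4.36 in the control group, beside NOTCH3 at 4.38. In the knockdown group it stood at 15.8, again below DLK1 (76.0) and HES6 (28.0) and above DLL3 (6.37).

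The spread of several genes between the knockdown libraries moved with GC content. Among all tested genes with an annotated transcript (17467, or 93.0%), the median ratio of library 2 to library 1 was 1.34 at a GC content of 60 to 65% and 1.495 at 65 to 70%. NOTCH3 (63.1% GC, ratio 1.39) and DLL3 (67.4%, 1.38) had ratios near these medians. HES6 (66.2%, 2.18), JAG2 (64.1%, 1.99) and NOTCH1 (63.5%, 2.02) were above the upper quartile of their GC class, as were DLK1 (55.1%, 1.42) and HEY1 (46.7%, 1.14). NOTCH2 (49.4%, 0.876), JAG1 (49.6%, 0.916) and HES1 (49.97%, 0.934) had ratios just under 1. After the correction for GC content and length, the log2 fold change of NOTCH2 and HEY1 stayed within their confidence intervals, at −1.26 and 1.95.

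**Figure D3:**
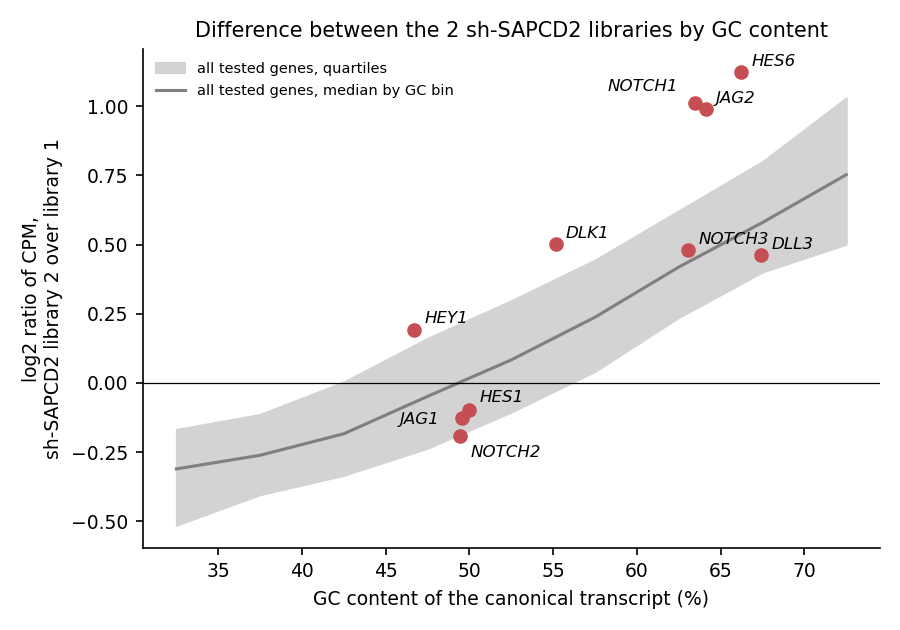
Log2 ratio of sh-SAPCD2 library 2 to library 1 (CPM) against the GC content of the canonical transcript in percent, with the Notch genes as dots and the median and quartiles of all tested genes by GC class of 5 percentage points as a line and a band. DLL3 and NOTCH3 sit near the line, and HES6, JAG2 and NOTCH1 sit above the band.

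The other genes of the pathway moved both ways. Of 59 listed genes 48 were tested, and 7 were lower and 8 higher at an adjusted p under 0.05, or 14.6% and 16.7% of those tested, beside 12.5% and 12.4% of all tested genes. Past an absolute log2 fold change of 1 there were 0 lower and 3 higher. The median log2 fold change was 0.12. These counts ranged widely with the processing, as given in the closing section. Of the other receptors and ligands, NOTCH4 and DLK2 were tested and not called, and DLL1, DLL4 and DNER, with at most 17 counts in any library, were not tested.

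Upstream of the receptor, 1 of 4 ubiquitin ligases that activate ligands rose, beside 12.4% of all tested genes. MIB2 had 22.96 and 22.7 CPM in the sh-Scb libraries and 36.6 and 62.7 CPM in the sh-SAPCD2 libraries (log2 fold change 1.12, adjusted p = 0.0253). It was 0.66 after the GC and length correction, and MIB2 overlaps an lncRNA on the opposite strand with 251, 192, 244 and 492 counts in the same order of libraries. In receptor maturation, POGLUT1, which adds glucose to the extracellular repeats, fell by 0.49 on the log2 scale (adjusted p = 0.0289), and FURIN, which makes the first cut in the receptor, rose by 0.89 (adjusted p = 0.0155), of 5 genes tested.

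In the cleavage machinery, APH1B, a subunit of gamma-secretase, had 17.8 and 15.3 CPM in the sh-Scb libraries and 9.74 and 7.54 CPM in the sh-SAPCD2 libraries. It fell by 0.94 on the log2 scale (adjusted p = 0.0189). ADAM10, which makes the cut outside the membrane, went the other way, with 98.6 and 106.9 CPM in the sh-Scb libraries and 174.8 and 143.2 CPM in the sh-SAPCD2 libraries, and rose by 0.63 (adjusted p = 0.0194). Without sh-Scb replicate 1 the log2 fold changes of APH1B and ADAM10 were −0.83 and 0.57 and neither was called (adjusted p = 0.0742 and 0.197), and ADAM10 was also not called without sh-Scb replicate 2 (0.69, adjusted p = 0.101).

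In the nucleus, 2 of 7 genes of the activating complex were lower and 1 higher, beside 12.5% and 12.4% of all tested genes. SNW1 (−0.46, adjusted p = 0.0278) and the acetyltransferase gene KAT2B (−0.82, adjusted p = 0.0454) fell, and the Mastermind gene MAML2 (0.56, adjusted p = 0.0383) rose. RBPJ, the DNA-binding factor, named here for its role and not by its rank, had 222.9 and 227.8 CPM in the sh-Scb libraries and 198.5 and 142.6 CPM in the sh-SAPCD2 libraries (log2 fold change −0.40, adjusted p = 0.124). Of 12 corepressors, TLE5 (−0.79, adjusted p = 0.0171) and L3MBTL3 (−0.60, adjusted p = 0.0466) fell and TLE3 (0.75, adjusted p = 0.0132) rose.

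Among 9 tested genes of receptor turnover and inhibition, 2 rose and 0 fell, where 12.4% and 12.5% of all tested genes were called higher and lower. NUMBL, a relative of the Notch inhibitor NUMB, had 24.8 and 25.6 CPM in the sh-Scb libraries and 52.4 and 65.2 CPM in the sh-SAPCD2 libraries (log2 fold change 1.22, adjusted p = 0.00478). FBXW7, which marks the intracellular domain for degradation, rose by 0.79 (adjusted p = 0.00997). Of the 7 other HES and HEY genes, HES7 was tested and rose, from 10 and 13 counts in the sh-Scb libraries to 52 and 116 counts in the sh-SAPCD2 libraries (log2 fold change 2.78, SE 0.433, adjusted p = 0.00866). HES7 is known for its oscillation in somite formation, and its level stayed at 2.05 and 3.69 CPM in the knockdown group. The other 6 had at most 7 counts in any library.

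Factors of the basic helix-loop-helix class that act beside the pathway in neural cells, and their inhibitors, were examined last. ID3, an inhibitor of basic helix-loop-helix factors, had 31.3 and 29.4 CPM in the controls against 52.9 and 69.6 CPM after knockdown (log2 fold change 1.01, adjusted p = 0.00963). NEUROD1 was just under the threshold (0.81, adjusted p = 0.04999) and was not called by DESeq2 (adjusted p = 0.113). In edgeR it also lost its call with library totals (adjusted p = 0.0535), a mean of at least 1 CPM (0.0502), protein-coding genes only (0.0546) and no filter on low counts (0.0989). It kept its call with DESeq2 size factors, the replicate block, and the GC and length correction with or without the block. With each library left out in turn, NEUROD1 ranged from 0.70 to 0.91 on the log2 scale and did not always keep its call. NEUROG1, NEUROG3 and NEUROD4 had no count in any library. Of the pathway and proneural genes named from these lists, NUMBL, HES7 and ID3 passed in every alternative fit across all genes. ADAM10, POGLUT1, SNW1, KAT2B, MAML2, L3MBTL3, TLE3 and FBXW7 were not called when either sh-Scb library was left out (adjusted p = 0.0615 to 0.412), nor FURIN and APH1B without sh-Scb replicate 1, and KAT2B was not called by DESeq2 (adjusted p = 0.0588). Without a filter on low counts MIB2, TLE5 and all of these except TLE3 and FBXW7 lost their call, each with its direction kept.

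**Figure D4:**
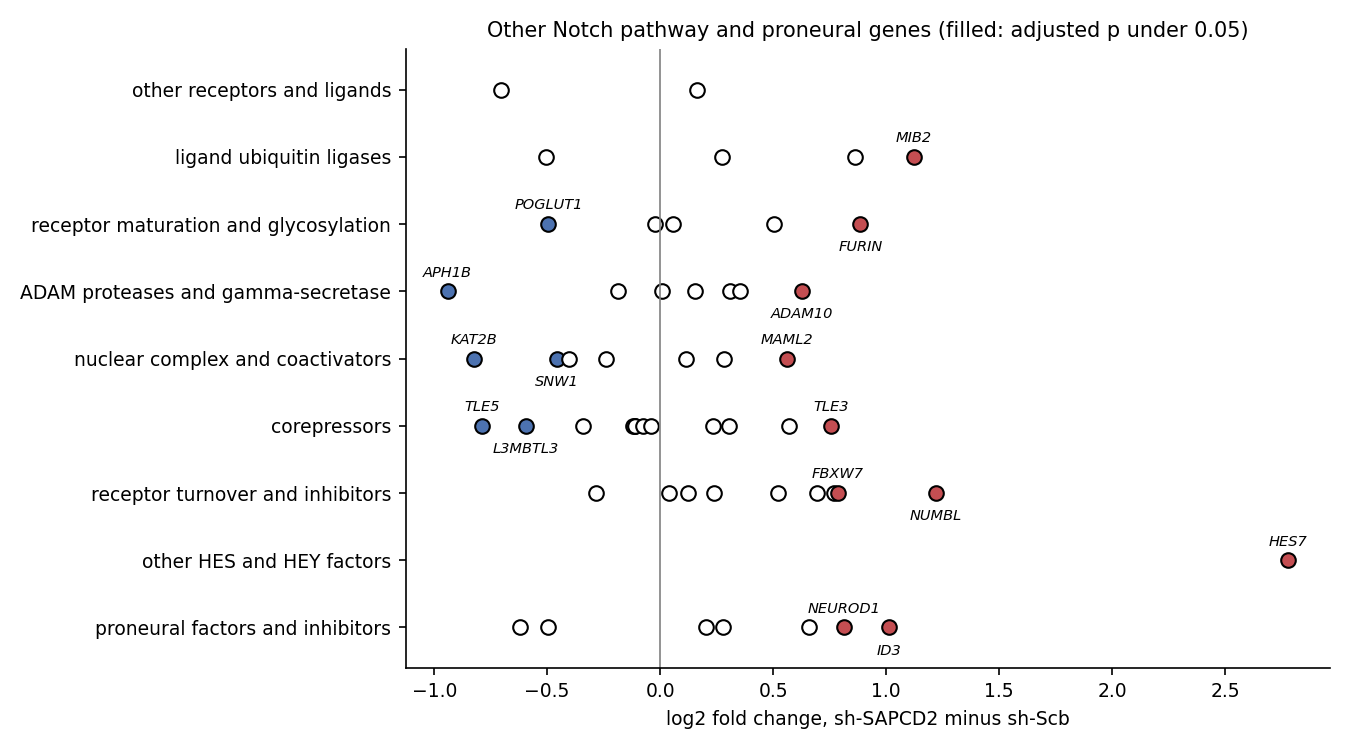
Log2 fold change (sh-SAPCD2 minus sh-Scb) of tested genes of the Notch pathway outside the 10 and of the proneural list, by role, with filled circles and names for genes at an adjusted p under 0.05. Genes called higher and lower in the pathway are spread over its roles, and HES7 lies farthest to the right at 2.78.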

How the data were processed

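RNA-seq libraries of sh-Scb and sh-SAPCD2 SK-N-BE(2) cells (n = 2 each) were used. Per the labels and the study's methods, HISAT2 2.2.0 mapped the paired-end reads (hg38), StringTie followed, and the authors deposited whole-number counts per Ensembl gene, unscaled. The counting step, strandedness, Ensembl release and handling of multi-mapped reads are not given in the sources used here. Groups came from the labels. Counts were TMM-scaled and tested in edgeR 4.0.16 (quasi-likelihood test, R 4.3.3; filterByExpr, minimum count 10, minimum total 15) on 18779 genes, with Benjamini-Hochberg adjustment over all of them, and a gene was called at an adjusted p under 0.05. Confidence intervals are per gene and unadjusted, and the floor of 3 counts covers counting error only. The correlation between libraries used log2 CPM with a prior count of 2. Symbols, transcripts, GC content and 3′ UTRs came from GENCODE 44. Alternatives were DESeq2 1.42.0, its size factors, library totals, other filters and thresholds, the replicate block, a loess correction for GC content and length (span 0.3) and each library left out. Fits were tested on simulated data. The 10 genes and the lists were chosen with earlier results of these data known. Named outside the 10 were listed genes past an absolute log2 fold change of 1, at most the 3 of a role with the smallest p, and untested genes. A motif was searched in RefSeq promoters as letters. Libraries of 25347900 to 31850997 counts set the precision. Single values of some listed genes are not reported here.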

Additional observations from a re-analysis of the deposited data

How the results depend on the processing

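NOTCH2 (log2 fold change −1.37 to −1.17) and HEY1 (1.76 to 1.95) kept their direction and call in every alternative fit, and JAG1 was called in none that tested it. NOTCH1 ranged from −0.90 to 0.0926 with a library left out and changed sign without sh-SAPCD2 replicate 1 (0.0926). Without a filter on low counts (34935 genes tested, against 18779), SAPCD2 kept its log2 fold change of −0.91 but not its call (adjusted p = 0.0749). With each library left out in turn its log2 fold change ranged from −1.23 to −0.67, and it was −1.29 with the GC and length correction. Of the 10 genes, 1 was lower in the edgeR fit and 2, NOTCH3 being added, under DESeq2, DESeq2 size factors, library totals, a mean of at least 1 CPM, protein-coding genes only, the replicate block, and the GC and length correction with or without it (1 to 2 with a library left out). The 3 called higher became 5 under DESeq2, the block, the GC correction and both, 1 without a filter, 1 at an absolute log2 fold change over 1 and 1 at an adjusted p under 0.01 (2 to 6 with a library left out). The 7 other pathway genes called lower became 1 without a filter, 13 with the GC correction, 13 with the GC correction and the block, 0 at the fold threshold and 1 at the stricter p (2 to 13 with a library left out), and the 8 called higher became 4, 15, 14, 3 and 3 in the same order (3 to 16). The cause was not tested. A fit with the replicate number as a block was run, although the labels do not say whether same-numbered libraries were paired. Deviations of same-numbered libraries correlated at −0.0188 across genes. The knockdown pair differed with GC content and the controls hardly did, so this value cannot decide whether libraries were paired. Under the block, NOTCH3 (−0.64, adjusted p = 0.0112), DLK1 (0.49, adjusted p = 0.0218) and HES6 (0.94, adjusted p = 0.00053) passed, and calls over all genes went from 2339 lower and 2326 higher to 2701 and 2860. Leaving out a library leaves a lone sample assumed to vary like the other group, and changed the calls in DLL3, HES1, HES6, DLK1, JAG2 and NOTCH3. With 2 libraries a group, of which the knockdown pair differs in GC-rich genes, changes of DLK1, HES6 and JAG2 cannot be placed more closely. NOTCH1 and JAG1, at 34 counts or fewer, are limited by depth.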

Other observations

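DLK1 belongs to an imprinted gene cluster on chromosome 14 that also holds the lncRNA genes MEG3, MEG8 and MEG9 and the genes RTL1 and DIO3. MEG3, which is expressed from the other parental copy than DLK1, had 1726 and 1627 CPM in the sh-Scb libraries and 1682 and 1631 CPM in the sh-SAPCD2 libraries. Its levels overlapped between the groups (log2 fold change −0.02, SE 0.0884, adjusted p = 0.903). Those of DLK1 did not, but DLK1 was not called (adjusted p = 0.0764). Groups were also apart in 2 of the 4 other tested genes of the cluster and in 67% of all tested genes. RTL1 (0.23, adjusted p = 0.471), MEG8 (−0.26, adjusted p = 0.473) and MEG9 (0.34, adjusted p = 0.204) did not pass the test either, and DIO3, with at most 8 counts in a library, was not tested. The difference between DLK1 and MEG3 was not tested.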
